A study of Mus musculus with 22 samples.

Results

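Among the promoters captured with guide RNAs in the study, 7 were chosen by the measured difference between the peak lists at 24 h and 0 h: Atp1b2, Btn1a1, Btg2, Dhrs11, Tmem44, Hebp1, and Slc38a5. They are 7 of 41 captured genes matched to the annotation (42 were listed) and of 21938 protein-coding genes in all. Because presence and length of peaks at 24 h and 0 h chose them, every value for those times is given as a description without a test. Each locus is the gene body plus 30 kb on each side in GENCODE M21, on mm10. Per the study, the captured promoters are those of the most strongly upregulated or downregulated genes in erythroid differentiation. The study names Btn1a1 among the activated ones. Expression was not examined here, and no member is called switched on or off from its marks.

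The peak lists came from ChIP-seq in mouse G1ER (G1E-ER4) cells, an erythroid progenitor line that lacks endogenous Gata1 and constitutively expresses GATA1 fused to the ligand-binding domain of the estrogen receptor (GATA1-ER). β-estradiol activates this fusion and starts erythroid differentiation, so every sample, including the untreated 0 h control, carries the transgene, and all samples are of a single subclone. H3K4me3 and H3K27ac were each profiled at 0, 2, 6, 12, and 24 h of β-estradiol with 2 replicate lists per time point, and CTCF at 0 and 24 h with 1 list each. The 22 lists hold peak positions and a score but no read counts, so the depth is unknown. Per the study, the replicates of the histone marks came from independent experiments, and the labels do not add whether these were separate cultures.

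H3K4me3 is laid down around the start sites of transcribed genes and reaches from the promoter into the first part of the gene body, and H3K27ac marks active promoters and enhancers. CTCF binds insulators and loop anchors and keeps much of its binding across cell states. A promoter that is switched on typically gains H3K27ac and, where it had none, H3K4me3, while a promoter that is switched off may lose acetylation and keep methylation for longer.

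The members do unrelated work. Slc38a5 encodes a sodium-coupled transporter of glutamine and other neutral amino acids, and Atp1b2 encodes a beta subunit of the sodium and potassium pump. Hebp1 encodes a heme-binding protein, and Dhrs11 an enzyme of the short-chain dehydrogenase family. Btg2 belongs to the antiproliferative BTG family, Btn1a1 encodes butyrophilin, best known from the milk fat membrane, and Tmem44 encodes a transmembrane protein.

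The first guide listed for each promoter is shown because it marks the captured site against which the peaks can be read. Each line gives the target 5′ to 3′ with the neighboring PAM in capitals; all were placed by an exact match to GRCm38, the assembly of mm10.
Atp1b2: tcttgtttcagtactgtaccTGG
Btn1a1: agccacagagttaaattcacAGG
Btg2: cagaggaagcgcgctacaccGGG
Dhrs11: atggaggctctccaccgcaaAGG
Tmem44: ttgcgccaccccggccagaaAGG
Hebp1: gctgaagcggagggatcctcAGG
Slc38a5: ggtatgcgaatgtaactagtTGG

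All 7 targets lay upstream of the start site used for each gene and outside that transcript. At Slc38a5 and Hebp1 the annotated gene begins farther upstream, so these targets lay within the annotated gene. The Atp1b2 target (chr11:69606182-69606201, minus strand) ended at -353 bp from the start site, where negative distances are upstream, and had 2 exact matches in the genome, whereas each of the other targets had 1. The Dhrs11 target was at chr11:84829257-84829276 (minus strand), ending at -293 bp. The Tmem44 target was at chr16:30550854-30550873 (plus strand), ending at -276 bp, and was the only target that a CTCF peak covered at both 0 h and 24 h. The Slc38a5 target was at chrX:8271161-8271180 (minus strand), ending at -201 bp. The targets of Btn1a1 (chr13:23466123-23466142, minus strand), Btg2 (chr1:134079388-134079407, plus strand), and Hebp1 (chr6:135168440-135168459, minus strand) ended at -248, -268, and -225 bp. H3K4me3 peaks covered the whole target in 10 of 10 lists at every member except Slc38a5, where 2 lists did. H3K27ac peaks covered it in 10 lists at Btg2 and Hebp1, in 8 at Btn1a1 and Tmem44, in 7 at Dhrs11, and in 3 at Atp1b2 and Slc38a5.

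The 250 bases upstream of the RefSeq start (GRCm38.p6) are shown for Slc38a5, Dhrs11, and Tmem44, which had the largest change in the number of lists with a peak and an entry in the promoter table. The motifs searched on both strands were the GATA-factor letters AGATAA or their variant AGATAG, the same with a leading T in place of A (TGATAA with its variant TGATAG), the KLF-factor letters CCACCC, the CCAAT box, and the TATA box as TATAAA. Matches are in capitals, and none of them overlapped.
Slc38a5, chrX:8271131-8271380, plus strand: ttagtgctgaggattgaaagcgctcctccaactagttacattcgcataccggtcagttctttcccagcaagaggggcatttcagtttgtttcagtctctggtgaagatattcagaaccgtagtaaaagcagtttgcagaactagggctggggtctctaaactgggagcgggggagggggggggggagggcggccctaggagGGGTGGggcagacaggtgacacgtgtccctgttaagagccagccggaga
Dhrs11, chr11:84829004-84829253, minus strand: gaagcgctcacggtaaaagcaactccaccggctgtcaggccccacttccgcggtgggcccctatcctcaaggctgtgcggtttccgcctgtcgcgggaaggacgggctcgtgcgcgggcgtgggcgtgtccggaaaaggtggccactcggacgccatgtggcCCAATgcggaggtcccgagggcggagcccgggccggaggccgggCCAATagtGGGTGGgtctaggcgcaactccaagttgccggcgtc
Tmem44, chr16:30550579-30550828, minus strand: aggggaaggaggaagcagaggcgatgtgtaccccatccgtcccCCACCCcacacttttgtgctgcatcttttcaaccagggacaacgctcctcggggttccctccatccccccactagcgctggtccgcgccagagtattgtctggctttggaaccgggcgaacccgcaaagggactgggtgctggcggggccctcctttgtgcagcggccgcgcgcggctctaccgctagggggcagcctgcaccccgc

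Each of the 3 windows held CCACCC once, on the minus strand in Slc38a5 (-49 to -44 from the RefSeq start) and Dhrs11 (-36 to -31, where the RefSeq start lies at -39 from the GENCODE start) and on the plus strand in Tmem44 (-207 to -202). Of all 32851 promoters in the table, 28.1% held CCACCC in the same window. CCAAT was found 2 times in Dhrs11 and 2 times in Btg2, against a share of 33.8% of promoters with a match. No GATA letters and no TATAAA were found in the windows of the 5 members that had a sequence, against 26.5% and 12.4% of all promoters. The Dhrs11 and Btg2 windows were rich in CG dinucleotides, with 27 each, followed by Tmem44 with 18, Hebp1 with 10, and Slc38a5 with 8; the median of all promoters was 6.

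Before the results, a property of the lists has to be given, because it touches every peak that disappears. No peak was longer than 9200 bp in any H3K4me3 list or 8973 bp in any H3K27ac list, and the longest peak per list was at least 8843 bp and 8769 bp, respectively. For H3K27ac, 10.5% of regions whose longest peak was 4 to 5 kb lacked a peak in at least 1 of the 10 lists. That share rose with each further step of 1 kb, to 39.4% at 7 to 8 kb and 70.6% at 8 kb or more. For H3K4me3 it was 0.552% at 4 to 5 kb and 41.6% at 8 kb or more. Long stretches were thus missing from single lists more often than stretches of middle length, and where a long or joined stretch is absent, loss of the mark cannot be told apart from a stretch too long to be listed. The lowest score of each list was about 50.0, so a weaker peak would not be listed either.

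**Figure D1:**
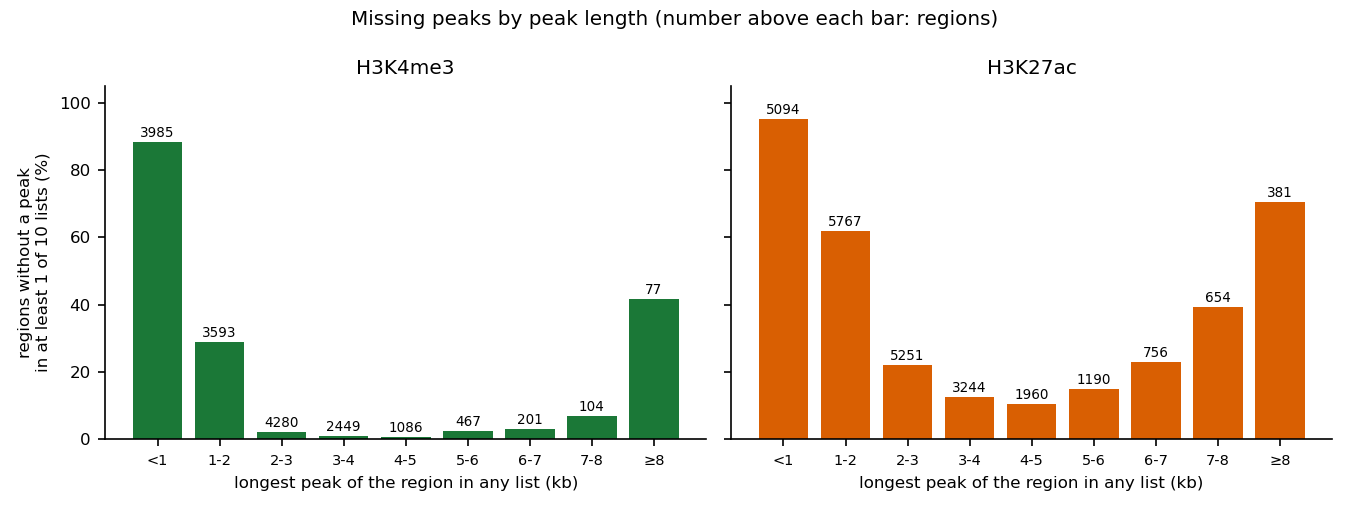
Share of consensus regions (peaks of the 10 lists merged where they touch) without a peak in at least 1 list, in percent, against the longest peak of the region in kb, with the number of regions above each bar. The share is high for short peaks, lowest at 4 to 5 kb, and high again at 8 kb or more (41.6% for H3K4me3, 70.6% for H3K27ac).

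Markers of the labelled cell type were checked in the same lists. H3K4me3 was listed at the start sites of 9 of 10 erythroid markers, 6 of them in all 10 lists, whereas 6 of 6 markers of other blood cells had no peak in any list. The erythroid factor gene Tal1 had no peak of either mark at its start site, and Nfe2, Gfi1b, and Hbb-bt were listed without H3K27ac in all 10 lists. Genes that erythroid cells use can therefore be listed without a peak.

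At the member promoters, H3K4me3 was listed more steadily than H3K27ac. A peak within 2 kb of the start site was present in all 10 H3K4me3 lists at 6 of the 7 members, against 95.6% of the 10041 promoters that had this mark in 2 or more lists. For H3K27ac it was present in all 10 lists at 2 of the 7, against 88.8% of 9641 promoters. Between 0 h and 24 h, H3K27ac went from both lists to neither at Atp1b2 and Dhrs11 (1.49% of the 9641 promoters) and from neither to both at Tmem44 and Slc38a5 (0.799%). H3K4me3 went from neither to both at Slc38a5 (0.199% of the 10041 promoters) and from both to neither at 0 of the 7 (0.538%). These shares were part of how the members were chosen, and nothing is read from them.

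**Figure D2:**
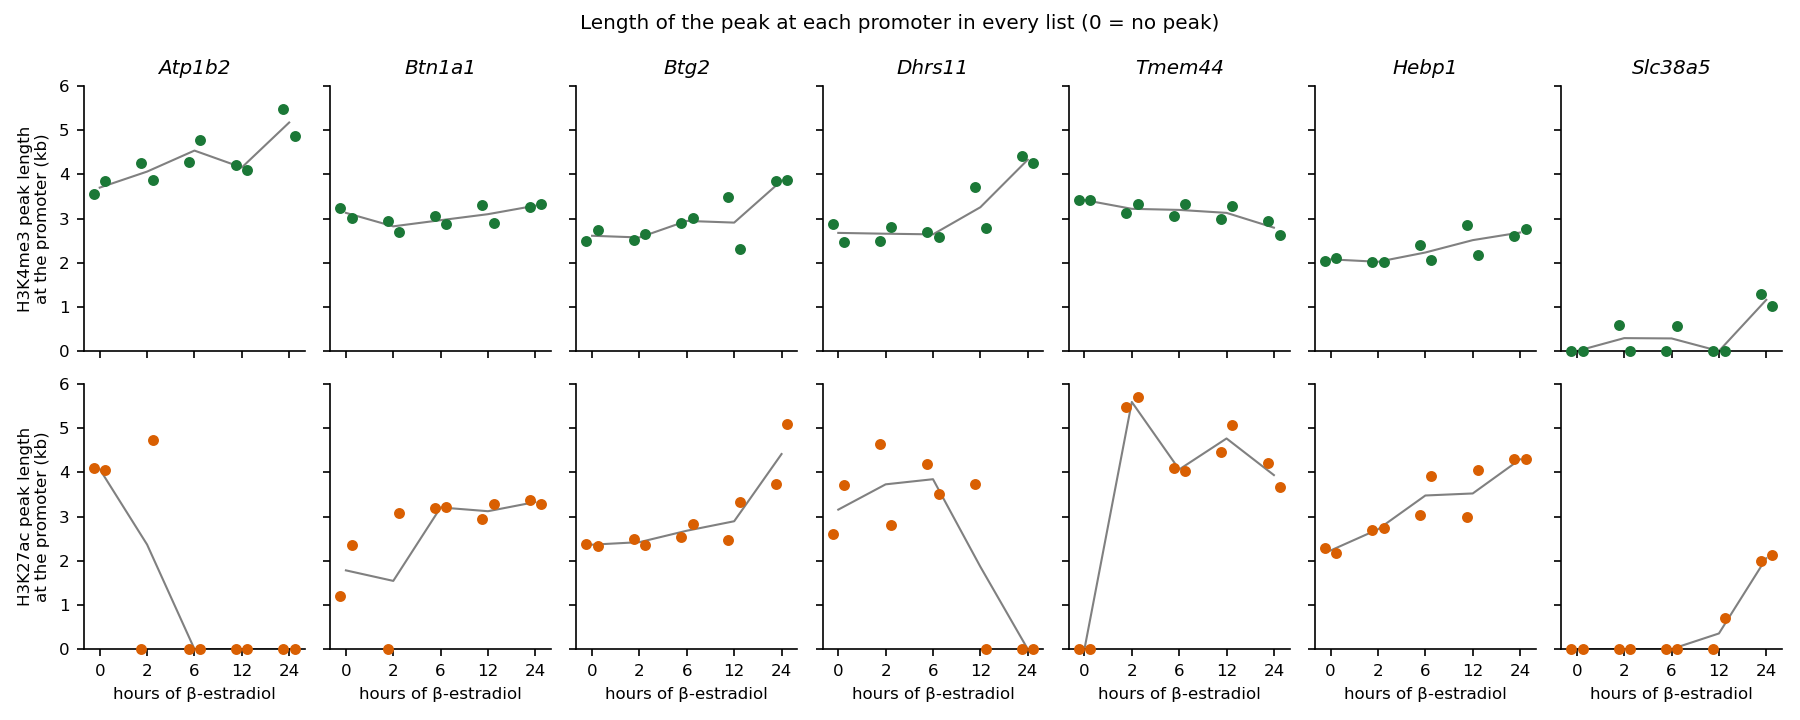
Length in kb of the peak within 2 kb of each start site against hours of β-estradiol, for H3K4me3 (top) and H3K27ac (bottom). Each point is a list, 0 stands for no peak, and the gray line joins the means of 2 lists; H3K27ac at Atp1b2 and Dhrs11 is at 0 in both lists at 24 h, and H3K4me3 at 6 members has no point at 0.

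At Atp1b2 (chr11, start site at 69605829, minus strand), H3K27ac was listed only early while H3K4me3 grew longer. The H3K27ac promoter peak measured 4093 and 4053 bp in the 2 lists at 0 h and 4732 bp in replicate 2 at 2 h. No peak was listed in replicate 1 at 2 h or in any list at 6, 12, and 24 h. A second H3K27ac peak lay in the Atp1b2 gene, 4108 to 6806 bp past the start site, and was present only at 0 h, with 2699 and 2426 bp.

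The pair of peaks at 0 h spanned 8000 and 8086 bp from the first edge to the last. Around the absent peaks at 24 h, no H3K27ac peak was listed over 97.3 and 97.5 kb, a stretch that held 5 H3K4me3 peaks in the H3K4me3 list of the same number. Across the genome, 15.7% and 15.6% of the H3K4me3 peaks at 24 h had no overlapping H3K27ac peak. The loss of H3K27ac at Atp1b2 and a stretch too long for the lists cannot be told apart. When peaks that scored under the median of the mark's 10 lists together were left out, the difference in covered H3K27ac length between 24 h and 0 h was 0.0 bp, because the peaks at 0 h were below that score.

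The H3K4me3 peak at Atp1b2 measured 3557 and 3842 bp (0 h), 4264 and 3861 bp (2 h), 4290 and 4786 bp (6 h), 4219 and 4092 bp (12 h), and 5477 and 4870 bp (24 h). Both lists at 24 h lay above all 8 earlier lists. The growth was on the gene side. The downstream edge moved from 2658 ± 94.8 bp past the start site (SD, n = 2) at 0 h to 4106 ± 436 bp at 24 h, and the upstream edge moved by -26.0 bp. The longer peak did not score higher: it stood at percentiles 54.6 and 53.0 of the scores in its lists at 0 h and at 40.8 and 48.9 at 24 h.

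At Dhrs11 (chr11, start site at 84828964, minus strand), H3K27ac was listed until 12 h. The promoter peak measured 2603 and 3711 bp (0 h), 4641 and 2818 bp (2 h), 4179 and 3512 bp (6 h), and 3728 bp in replicate 1 at 12 h. It was absent in replicate 2 at 12 h and in both lists at 24 h. A second region, 7889 to 11167 bp past the start site at the start site of Mrm1, a mitochondrial rRNA methyltransferase gene, had H3K27ac in both lists at 0 h and 2 h, in neither at 6 h, in replicate 1 at 12 h, and in neither at 24 h. Where both were listed, promoter and Mrm1 peaks together spanned 12756 to 13579 bp in 5 lists, with a gap between them.

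In the 3 lists without a promoter peak, no H3K27ac peak lay anywhere in the Dhrs11 locus. The empty stretch measured 174 kb in each of them and held 3 H3K4me3 peaks in the matching H3K4me3 list. The joint absence at Dhrs11 and Mrm1, and a stretch too long to be listed, cannot be told apart.

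H3K4me3 at Dhrs11 stayed in all 10 lists and grew late. It measured 2887 and 2462 bp (0 h), 2500 and 2812 bp (2 h), 2697 and 2586 bp (6 h), 3719 and 2792 bp (12 h), and 4409 and 4252 bp (24 h). Only the lists at 24 h and replicate 1 at 12 h stood apart from the rest. The downstream edge moved from 1543 ± 160 bp to 3261.5 ± 186 bp past the start site (SD, n = 2). As at Atp1b2, the longer peak ranked lower by score, at percentiles 57.6 and 75.1 at 0 h and 42.9 and 46.9 at 24 h. The H3K4me3 region at Mrm1 was present in all 10 lists.

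**Figure D3:**
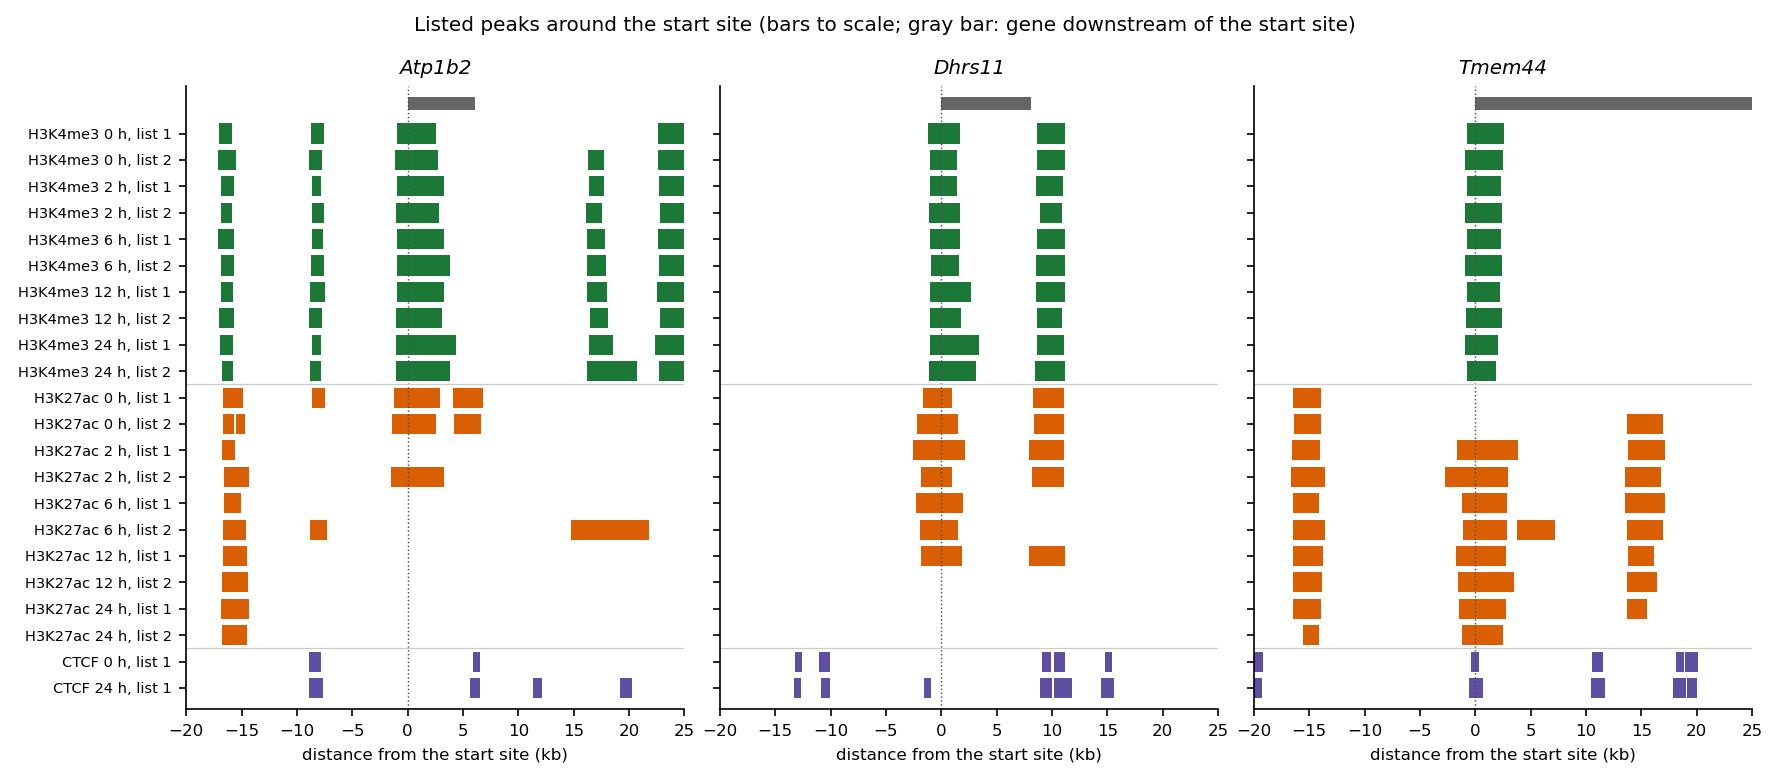
Listed peaks of H3K4me3 (green), H3K27ac (orange), and CTCF (purple) in each of the 22 lists around Atp1b2, Dhrs11, and Tmem44, against distance from the start site in kb (positive in the direction of transcription). The H3K27ac promoter peaks of Atp1b2 and Dhrs11 are last listed at 2 h and 12 h, that of Tmem44 is first listed at 2 h, and the H3K4me3 peak at each start site is present in all 10 lists.

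At Tmem44 (chr16, start site at 30550578, minus strand), H3K27ac appeared by 2 h. No promoter peak was listed at 0 h. The lengths were then 5491 and 5697 bp (2 h), 4100 and 4033 bp (6 h), 4452 and 5084 bp (12 h), and 4216 and 3661 bp (24 h). Of these 8 peaks, those at 2 h were the longest. A second H3K27ac peak followed at 3805 to 7222 bp past the start site in replicate 2 at 6 h, where both peaks together covered 7451 bp. In replicate 2 at 0 h, a distal H3K27ac peak in an intron of Tmem44, 13491 to 17121 bp past the start site, was listed although the promoter peak was not. That distal region had a peak in 8 lists, with 1 at 0 h and 1 at 24 h. The stretch without H3K27ac around the Tmem44 start site measured 59.9 and 27.7 kb in the lists at 0 h and held 1 H3K4me3 peak, and a gain of the mark cannot be told apart from a stretch that was too long to be listed at 0 h.

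H3K4me3 at Tmem44 became shorter. It measured 3425 and 3411 bp (0 h), 3117 and 3322 bp (2 h), 3062 and 3328 bp (6 h), 2981 and 3275 bp (12 h), and 2952 and 2634 bp (24 h). Both lists at 24 h were shorter than all 8 others. The downstream edge moved by -586 bp between 0 h and 24 h. A further H3K27ac region that varied lay 39125 to 40495 bp past the start site, beyond the gene, with a peak in 1 list at 0 h, in none at 2 h, in 1 each at 6 h and 12 h, and in both at 24 h.

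Slc38a5 (chrX, start site at 8271381, plus strand) was the member that gained both marks. Its H3K27ac promoter peak was absent in all lists at 0, 2, and 6 h and in replicate 1 at 12 h, measured 707 bp in replicate 2 at 12 h, and reached 1988 and 2127 bp (24 h). H3K4me3 was absent in both lists at 0 h, was listed at 585 bp in replicate 1 at 2 h and at 571 bp in replicate 2 at 6 h, was absent at 12 h, and measured 1296 and 1021 bp (24 h). The 3 short peaks were weak, with scores of 60.9 (H3K27ac), 64.4, and 60.7 (H3K4me3), near the lowest listed score of 50.0.

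At 24 h the H3K4me3 peaks of Slc38a5 stood at percentiles 17.5 and 15.4 of the scores in their lists and the H3K27ac peaks at 48.7 and 40.5. An upstream H3K27ac region at -8889 to -6812 bp had a peak in 7 lists, including 1 at 0 h and 2 at 24 h. The next region upstream, at the start site of Ftsj1, an RNA methyltransferase gene, had both marks in all 10 lists. When peaks under that median score were left out in the same way, no peak of either mark was left at the Slc38a5 promoter at 0 h or 24 h, and the difference was 0.0 bp for both.

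Btg2 (chr1, start site at 134079120, minus strand) kept both marks in all lists, and both grew longer. H3K4me3 measured 2489 and 2730 bp (0 h), 2503 and 2639 bp (2 h), 2888 and 3004 bp (6 h), 3496 and 2319 bp (12 h), and 3843 and 3871 bp (24 h). H3K27ac measured 2387 and 2340 bp (0 h), 2484 and 2358 bp (2 h), 2532 and 2827 bp (6 h), 2459 and 3329 bp (12 h), and 3735 and 5096 bp (24 h). For both marks, the 2 lists at 24 h were longer than all 8 others. The downstream edge of H3K4me3 moved from 1793 ± 42.4 to 3052.5 ± 135 bp (SD, n = 2) and that of H3K27ac by 1230.5 bp, with replicates at 24 h far apart (SD 1146.2 bp). Unlike at Atp1b2 and Dhrs11, the H3K4me3 peak at 24 h also ranked higher by score than at 0 h, at percentiles 50.2 and 55.4 at 0 h and 61.3 and 62.1 at 24 h. Length and rank did not rise together over all lists. The shortest peak, of 2319 bp in replicate 2 at 12 h, stood at percentile 81.1, and that of 3496 bp in replicate 1 at 51.5.

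A distal H3K27ac region was listed at -8918 to -6668 bp from the Btg2 start site, between protein-coding genes. It was absent in both lists at 0 h and measured 1870 and 1472 bp (2 h), 1954 and 1770 bp (6 h), 2088 and 1791 bp (12 h), and 1842 and 1656 bp (24 h). It was thus present in all 8 lists after β-estradiol, and its lengths at 2 h overlapped those at 24 h. The 2 H3K27ac regions farther upstream, with centers beyond 13 kb, were in all 10 lists, and both also carried H3K4me3 in all 10.

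Hebp1 (chr6, start site at 135168215, minus strand) also kept both marks and gained length. H3K27ac measured 2284 and 2182 bp (0 h), 2686 and 2736 bp (2 h), 3042 and 3912 bp (6 h), 2989 and 4057 bp (12 h), and 4293 and 4298 bp (24 h). All lists after β-estradiol were longer than both lists at 0 h, and both lists at 24 h were the longest. H3K4me3 measured 2037 and 2114 bp (0 h), 2015 and 2026 bp (2 h), 2405 and 2057 bp (6 h), 2843 and 2178 bp (12 h), and 2597 and 2768 bp (24 h); here replicate 1 at 12 h lay above both lists at 24 h.

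The downstream edge of H3K27ac at Hebp1 moved from 1679 ± 59.4 to 3497.5 ± 50.2 bp past the start site (SD, n = 2). The annotated gene begins farther upstream, near the start site of Fam234b, and the H3K27ac and H3K4me3 regions there were in all 10 lists. No region of the Hebp1 locus had a peak in both lists of a time point and in neither list of another. Lengths did change: the H3K4me3 region at Fam234b measured 4467 and 4350 bp at 24 h and 2766 to 3615 bp in the earlier lists.

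At Btn1a1 (chr13, start site at 23465875, minus strand), the H3K27ac promoter peak was short or absent early and of stable length later. It measured 1203 and 2361 bp (0 h), was absent in replicate 1 at 2 h and measured 3087 bp in replicate 2, and then 3197 and 3216 bp (6 h), 2953 and 3289 bp (12 h), and 3374 and 3283 bp (24 h). The 6 lists from 6 h on lay above both lists at 0 h. H3K4me3 measured 2695 to 3330 bp over the 10 lists with means of 3128 ± 161 bp at 0 h and 3290.5 ± 55.9 bp at 24 h (SD, n = 2); replicate 1 at 12 h, at 3295 bp, lay between the lists at 24 h.

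Past the start site of Btn1a1, 3 distal regions varied. H3K4me3 within the gene, 5541 to 7083 bp past the start site, was listed in both lists at 0 h (1119 and 1414 bp) and in replicate 2 at 6 h, and nowhere else. H3K27ac at 10872 to 12767 bp was listed in both lists at 0 h, in neither at 2 h and 6 h, and in 1 each at 12 h and 24 h. H3K4me3 at 14837 to 17521 bp was listed in both lists at 0 h and 12 h, in neither at 2 h, and in 1 each at 6 h and 24 h. The last 2 did not follow the order of the time points.

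**Figure D4:**
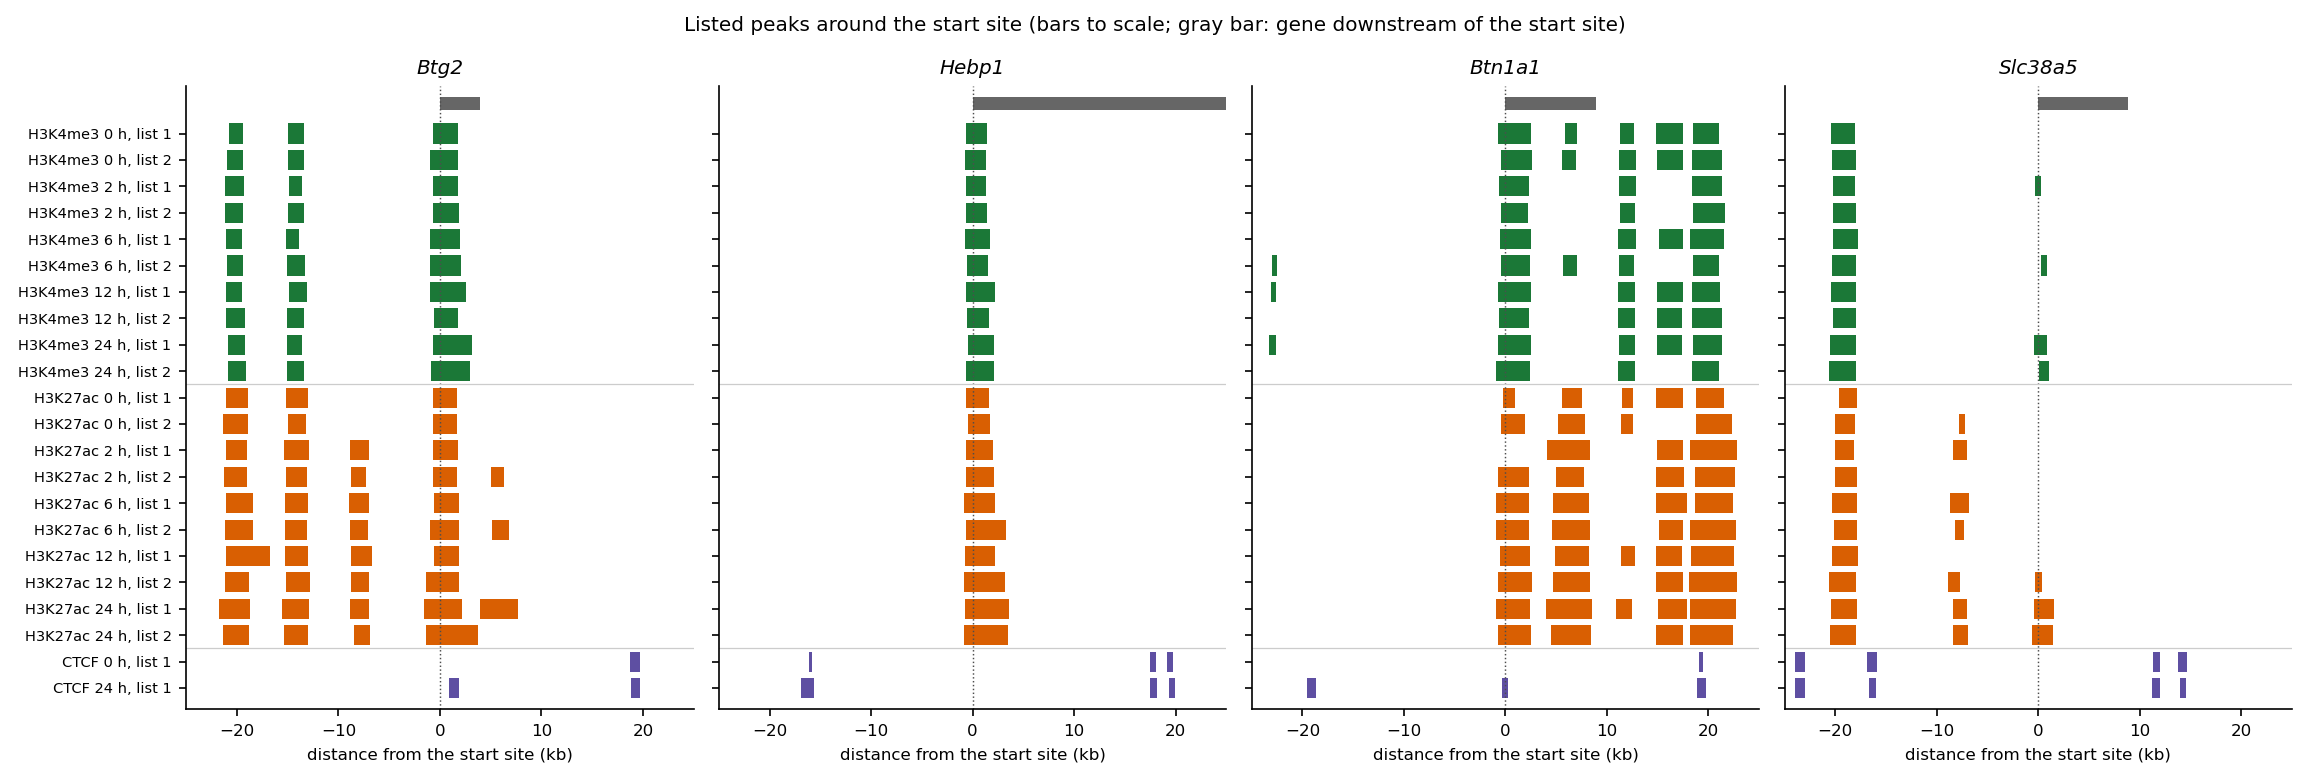
Listed peaks of H3K4me3 (green), H3K27ac (orange), and CTCF (purple) in each of the 22 lists around Btg2, Hebp1, Btn1a1, and Slc38a5, against distance from the start site in kb. The H3K27ac region upstream of Btg2 is present in all 8 lists after 0 h, and the peaks at Slc38a5 are in both lists only at 24 h.

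Over all 7 loci there were 24 distal H3K27ac regions, 2 of which were in a single list. Of these 24, 11 were in all 10 lists, against 62.9% of the 21011 H3K27ac regions in 2 or more lists. A further 5 varied, that is, they had a peak in both lists of a time point and in neither list of another, as did 16.6% of the 21011. Of the 20 distal H3K4me3 regions, 15 were in all 10 lists, against 77.4% of 14860 H3K4me3 regions, and 2 varied, against 9.21%. The 21011 and the 14860 include promoter regions and leave out regions in a single list, so they are not a like set for the distal regions. At the promoters themselves, 4 of 7 H3K27ac regions and 1 of 7 H3K4me3 regions varied, as the choice of the members implies.

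At Atp1b2, Btg2, Dhrs11, Tmem44, and Hebp1, the downstream edge of H3K4me3 moved more than the upstream edge, and at Btn1a1 it moved less. Among the 9597 promoters with H3K4me3 in all 10 lists, the downstream edge shifted by a median of 4.0 bp between 0 h and 24 h (quartiles -91.5 and 107 bp). Dhrs11 (1718.5 bp) stood at percentile 99.6 of this distribution, Atp1b2 (1448 bp) at 99.4, Btg2 (1259.5 bp) at 99.2, and Hebp1 (734 bp) at 97.9. Btn1a1 (-59.5 bp) stood at 32.8 and Tmem44 (-586 bp) at 1.4. Peak length in these same lists chose the members, so the ranks were part of the choice and nothing is read from them. The upstream edges shifted by -222 bp at Btn1a1, 127 bp at Hebp1, and -26.0 to 62.5 bp at the other members.

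For H3K27ac, the downstream edge shifted by a median of 70.5 bp over 8562 promoters, and Hebp1 (1818.5 bp) stood at percentile 98.7 and Btg2 (1230.5 bp) at 96.6. These ranks also rest on the lists that chose the members. The direction of the H3K4me3 shift at Atp1b2 and Dhrs11 was also that of most promoters with the same H3K27ac change. Of 144 promoters with H3K27ac in both lists at 0 h and neither at 24 h, 98 had H3K4me3 in all 10 lists, Atp1b2 and Dhrs11 among them; the downstream edge lay further into the gene at 24 h in 71 of them and nearer in 27, with a median shift of 225 bp (quartiles -11.9 and 573.9 bp). Of 77 promoters with the opposite H3K27ac change, 40 had H3K4me3 in all 10 lists; the edge lay further into the gene in 18 and nearer in 22, with a median shift of -48.0 bp (quartiles -175.6 and 54.1 bp). For promoters with H3K27ac in both lists at both times, the median was 4.5 bp, with the edge further into the gene in 4385 and nearer in 4179. These comparisons also use the lists at 0 h and 24 h that chose the members, so nothing is read from them about Atp1b2 and Dhrs11.

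**Figure D5:**
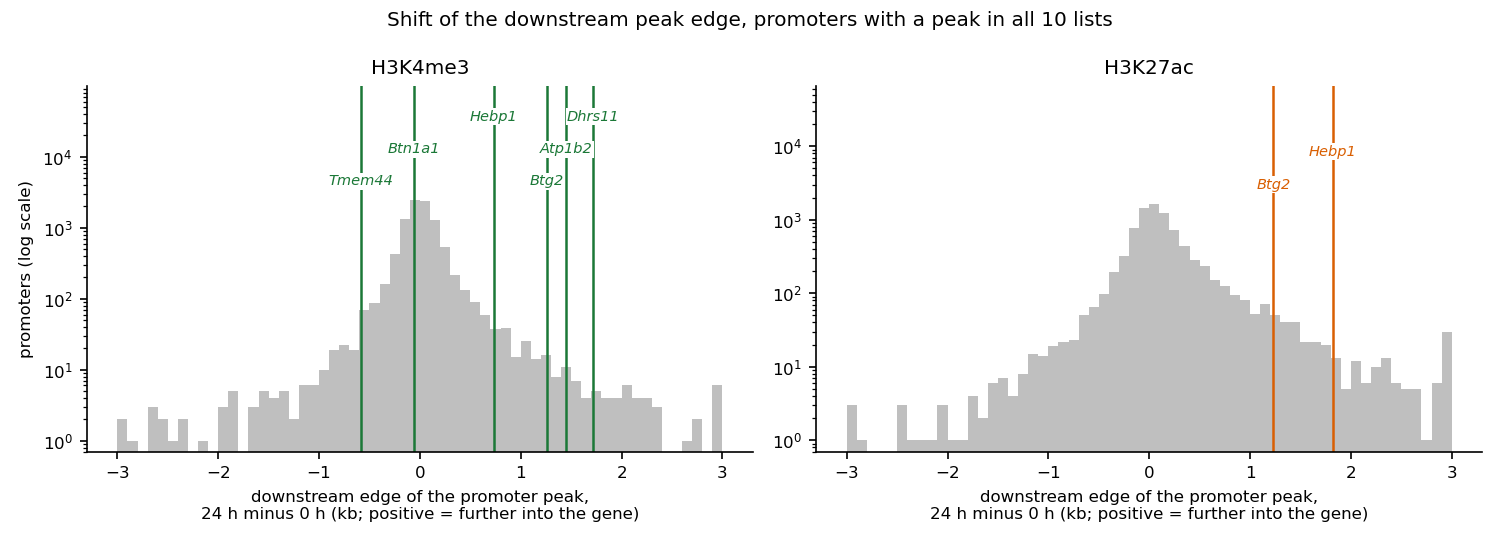
Number of promoters (log scale) by shift of the downstream edge of the promoter peak between 0 h and 24 h, in kb, for promoters with a peak in all 10 lists; the outermost bars also hold the promoters beyond 3 kb. Colored lines mark the members, with Dhrs11 farthest into the gene (1718.5 bp) and Tmem44 at the opposite end (-586 bp) for H3K4me3. The members were chosen on peak length in the same lists.

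A contrast whose time points were not used in choosing the members is 12 h against 2 h. The single fit took its variance from all time points, however, including the 0 h and 24 h lists that chose the members. H3K27ac had the 2 lists with a peak needed for testing only through 0 h at Atp1b2 and through 24 h at Slc38a5. With only the 6 lists from 2 to 12 h, neither could be tested. Covered length within 2 kb of the start site was tested with limma on log2(covered bp + 200) over all promoters with a peak in at least 2 lists of a mark, with Benjamini-Hochberg adjustment; the log2 difference understates changes of short peaks. The window leaves out any length past 2 kb, so growth of a peak beyond it cannot show in this test. Between 0 h and 24 h, H3K4me3 at Atp1b2 gained 26.0 bp within the window and 1474 bp in peak length. No member passed an adjusted p of 0.05 for either mark (0 of 7 each), against 0.0996% of all H3K4me3 promoters and 0.373% of all H3K27ac promoters. Per consensus region, 0.0404% of H3K4me3 regions and 1.35% of H3K27ac regions passed, and none of the regions of the 7 loci did.

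The largest member differences in this contrast were in H3K27ac and came with large errors. Atp1b2 differed by -2.10 (SE 1.2, adjusted p = 0.724 by limma), Dhrs11 by -2.01 (SE 1.23, adjusted p = 0.741 by limma), Btn1a1 by 1.89 (SE 1.12, adjusted p = 0.730 by limma), and Slc38a5 by 1.09 (SE 0.65, adjusted p = 0.730 by limma) on the log2 scale. In each of these, the mark was listed in only 1 of the 2 replicates at 2 h or at 12 h. The size of the difference turned on that list. Without replicate 1 at 2 h, Atp1b2 differed by -4.19, and without replicate 2 at 2 h, Btn1a1 differed by 3.83. Without replicate 1 at 12 h, Dhrs11 differed by -4.15 and Slc38a5 by 2.18. Each of these fits left 1 list at that time point, which is assumed to vary like the other groups. Those groups include the lists at 0 h and 24 h that chose the members, so only effect sizes are given. Without the other list of the same pair, the difference was -0.04 at Btn1a1, 0.14 at Dhrs11, and 0.0 at Atp1b2 and Slc38a5.

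For H3K4me3, the same contrast gave 0.24 at Hebp1 (SE 0.10, unadjusted p = 0.0566 and adjusted p = 0.970 by limma), 0.12 at Dhrs11, and -0.99 at Slc38a5, which rests on a single short peak. The other 4 members differed by -0.01 to 0.09. The median over the members was 0.025 for H3K4me3 and 0.073 for H3K27ac, against 0.0 and 0.031 over all promoters tested. Among the other captured promoters, 0 of 29 tested passed for H3K4me3 and 1 of 28 for H3K27ac, Sept9 (-4.39, SE 0.04, adjusted p = 2.46e-07 by limma). A drop of this size within the window means a peak listed at 2 h and none at 12 h. Loss of the mark and a stretch too long to be listed cannot be told apart there either.

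Among the distal regions that varied, the H3K27ac region upstream of Btg2 differed by 0.20 between 12 h and 2 h (SE 0.19, adjusted p = 0.771 by limma). The region at Mrm1 differed by -1.95 (SE 1.17, adjusted p = 0.747 by limma). The H3K4me3 region 14837 to 17521 bp past the Btn1a1 start site had the smallest unadjusted p among the H3K4me3 regions of the loci, with a difference of 3.77 (SE 1.37, unadjusted p = 0.0265, adjusted p = 0.819 by limma). Among the H3K27ac regions it was the steady region at Ftsj1, upstream of Slc38a5, with 0.32 (SE 0.08, unadjusted p = 0.00477, adjusted p = 0.215 by limma).

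CTCF was mostly shared between the lists. Of 43 CTCF sites in the 7 loci, 33 were listed at both times, 1 only at 0 h, and 9 only at 24 h. The 9 are 21.4% of the sites at 24 h, against 26.7% of all CTCF peaks at 24 h, and 7.87% of all CTCF peaks at 0 h had no counterpart at 24 h. There were 33193 peaks at 0 h and 41473 at 24 h, and with 1 list per time point there is no replicate check.

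At 3 members a CTCF peak near the start site was listed only at 24 h. At Btn1a1 it covered the start site (-301 to 293 bp) with a score at percentile 46.6 of its list. At Btg2 it lay 905 to 1847 bp past the start site at percentile 6.9, and at Dhrs11 at -1602 to -898 bp at percentile 24.1. The 9 peaks seen only at 24 h stood at percentiles 5.9 to 46.6, and the median of such peaks over the genome was 17.9, against 63.2 for shared peaks. The share of all promoters with a CTCF peak listed only at 24 h is not given here, so nothing is read from the 3 members.

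At Tmem44, by contrast, the CTCF peak over the start site was listed at both times, at percentiles 95.5 and 97.7, and all 7 CTCF sites of its locus were shared. The Mrm1 end of the Dhrs11 locus held CTCF sites centered 9.5 kb past the start site and beginning at 10172 bp at both times, and both overlapped the region where H3K27ac was absent at 24 h. In the Atp1b2 gene, a shared CTCF peak at 6.1 kb lay inside the H3K27ac region seen only at 0 h. At Atp1b2, Hebp1, and Slc38a5, no CTCF peak lay within 2 kb of the start site.

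The 7 promoters did not follow a common course. Over the 20 histone lists, the Pearson correlation of log2 covered length (centered within each mark) between pairs of members ran from -0.822 (Btg2 and Dhrs11) to 0.708 (Btg2 and Slc38a5). These correlations are a description over lists that share time points and libraries. Covered length was taken within 2 kb of the start site, and a list without a peak enters with no covered length. Where some lists lack a peak, a correlation therefore rests largely on which lists those are. Over 9388 genes compared in this way, the promoters most like Atp1b2 were those of St13 and Xpnpep3 (0.999 each), and those most like Dhrs11 were Hdac7 (0.996) and Dnajb12 (0.995). Cd274 (0.998) and Grk2 (0.996) were most like Tmem44, and Tmod1 (0.980) and Wdr7 (0.966) most like Btn1a1. The values were lower for Btg2 (Prep, 0.867 and Bambi, 0.840), Hebp1 (Map3k13, 0.873 and Nme4, 0.825), and Slc38a5 (Zbtb17, 0.837 and Sun2, 0.812).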

How the data were processed

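The 22 ChIP-seq peak lists from G1ER cells (H3K27ac, H3K4me3, CTCF) were used as deposited. The authors aligned reads with Bowtie2 to mm10, kept uniquely mapped reads, and called peaks per library with MACS without its fragment model; the MACS version, control library, and threshold are not given in the sources used here. The deposited files hold peak starts and ends in bp and the peak score of the caller, whose scale is not stated and was used only to rank peaks within a list. A protocol in the labels names a human build, but 57.95 to 64.25% of the peaks in each H3K4me3 list held a mouse start site, against 4.28 to 4.58% after moving them by 50 kb. The files give no read counts, so no counting error is given.

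Start sites were taken from GENCODE M21 (longest transcript of the best APPRIS level), promoters reached 2 kb to each side, and touching peaks from the 10 lists of each mark were joined into consensus regions. Features with a peak in at least 2 lists were tested with limma 3.58.1 (R 4.3.3), all time points in a single fit per mark, on log2(covered bp + 200) with Benjamini-Hochberg adjustment at 0.05, after testing on simulated data. Other steps used Python 3.11.15 with pandas 2.3.3. The members, gene lists, and regions named were chosen with earlier results of these data known. Distal regions were named if they had a peak in both lists of a time point and in neither of another, and for each member the 2 promoters of most similar course were named; regions at Ftsj1, Fam234b, and upstream of Slc38a5, those in an intron of Tmem44, and the farther regions upstream of Btg2 were named after their values were seen. Alternatives were other pseudocounts, windows, list minimums, scaling, score limits, merging, a replicate block, and leaving out each list.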

Additional observations from a re-analysis of the deposited data

How the results depend on the processing

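The number of H3K4me3 promoters called between 12 h and 2 h (10) became 6 with a peak required in at least 5 lists, 2 with only the 6 lists from 2 to 12 h, 56 with higher-scoring peaks only (at or above the pooled median score), and 17 with a 5 kb window, and ran from 4 to 27 when single lists were left out. For H3K4me3 regions (6) it was 34 with a pseudocount of 50 bp, 56 with higher-scoring peaks, and 4 to 30 with single lists left out. For H3K27ac promoters (36) it was 75 with higher-scoring peaks, 23 with scaling by median peak length, and 48 to 106 with single lists left out. For H3K27ac regions (283) it was 182 with a pseudocount of 1000 bp, 92 with at least 5 lists, 168 with the 6 lists, 142 with higher-scoring peaks, and 235 to 421 with single lists left out. The cause of these changes was not tested. Replicate numbers did not pair the lists: deviations of same-numbered lists correlated by -0.076 to 0.034 for H3K4me3 and -0.029 to 0.017 for H3K27ac. With the replicate number as a block, the counts were 9, 5, 28, and 135, respectively, and no member was called.

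Of 271 alternative values for the members between 12 h and 2 h, 16 changed sign. None passed the threshold except in fits that left a single list at 2 h or 12 h, which are given as effect sizes only. With higher-scoring peaks only, H3K4me3 differed by 3.99 at Atp1b2 and -1.88 at Dhrs11, and H3K27ac by -1.94 at Btn1a1, 0.19 at Dhrs11, and 2.14 at Tmem44. H3K4me3 differed by 0.03 at Atp1b2 with the 5 kb window, -0.01 at Btg2 with scaling, and -0.06 at Hebp1 with a 1 kb window. With single lists left out, H3K4me3 ran from -0.03 to 0.01 at Atp1b2, -0.14 to 0.19 at Btg2, and -0.06 to 0.03 at Tmem44, and H3K27ac from -0.04 to 3.83 at Btn1a1, -4.15 to 0.14 at Dhrs11, and -0.13 to 0.01 at Tmem44. Of 112 alternative values between 24 h and 0 h (covered bp within the window), 80 moved by less than 1 SD, 25 by more, and 7 changed sign. Growth of a peak past the window is not counted in these values. The H3K4me3 values that changed sign were -3041.5 bp at Atp1b2 and -2674.5 bp at Dhrs11 with higher-scoring peaks, where the 24 h peaks fell under the score limit, -108.1 bp at Atp1b2 with scaling, and -12.0 bp at Btg2 and -127.0 bp at Hebp1 with the 1 kb window. With higher-scoring peaks only, the differences of -3319 bp in H3K27ac at Atp1b2 and of 2057.5 bp in H3K27ac and 1158.5 bp in H3K4me3 at Slc38a5 were each 0.0 bp, since no peak of these promoters reached the score limit at 0 h or 24 h. Leaving out single lists gave -49.5 to 101.5 bp at Atp1b2 and -203.0 to 43.0 bp at Tmem44. The count of shared CTCF sites (33) was 16 with higher-scoring peaks and 16 with a 10 kb flank, both of which leave fewer peaks to compare.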
